A study of Homo sapiens with 66 samples.

Results

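Basal gene expression was compared between KMT2A-rearranged acute myeloid leukemia (AML) cell lines that carry a FLT3 internal tandem duplication (FLT3-ITD) and those that do not. Of the 66 libraries of the series, 15 were used. They are the untreated libraries of MOLM-13 and MV-4-11 on the FLT3-ITD side (6 libraries) and of THP-1, NOMO-1 and MONO-MAC-6 on the ITD-negative side (9 libraries), with 3 libraries per cell line. All 5 lines are human, were kept in medium without etoposide for 24 hours, and carry a fusion of KMT2A: MOLM-13, THP-1, NOMO-1 and MONO-MAC-6 carry KMT2A::MLLT3, and MV-4-11 carries KMT2A::AFF1. Per the paper, MONO-MAC-6 alone of the 5 was grown with added non-essential amino acids, pyruvate and human insulin, whose part was not tested. Cells of 3 wells were pooled for each RNA isolation. Each line is a single culture line from a single patient, so a side holds 2 or 3 independent genotypes however many libraries were made. The FLT3 and KMT2A status is general knowledge of these lines and is not stated in the labels, and counts of reads per gene cannot show a tandem duplication. MONO-MAC-6 is known to carry an activating FLT3 point mutation that is not a duplication. The lines also differ in other mutations, some of which divide them in the same way as FLT3-ITD, and the part of these and that of FLT3-ITD cannot be told apart.

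FLT3 is a receptor tyrosine kinase of early blood progenitors. Its ligand makes the receptor pair up, and signals then run through RAS and ERK, through PI3K and AKT, and weakly through STAT5. An internal tandem duplication lengthens the part of the receptor next to the membrane and leaves the kinase active without ligand, and the duplicated receptor is known to engage STAT5 strongly. STAT5 is a transcription factor that binds paired TTC and GAA half-sites and induces, among others, the feedback inhibitors CISH and the SOCS genes and the kinases PIM1 and PIM2. KMT2A fusions hold the HOXA genes and MEIS1 active, and lines that carry them often show monocytic features.

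The 15 libraries held between 18363855 and 21295862 reads on genes (median 20190353), and every pair of libraries of a line differed by more than sampling noise (chi-square of 2.302 or more per degree of freedom, on genes with at least 100 reads). Expression is given as CPM, the reads of a gene divided by the TMM-normalized library size and scaled to a fixed total, a scale that corrects for depth but not for gene length. The myeloid markers CD33 (70 to 150 CPM) and SPI1 (135 to 192 CPM) were present in every library. Of the 13 erythroid and megakaryocytic markers, 10 were under 1 CPM in all 15 libraries, and the sum of the list ranged from 0.103 to 1.54 CPM in the FLT3-ITD libraries and from 1.01 to 40.6 CPM in the others. The 14 lymphoid markers summed to between 20.3 and 59.1 CPM in the FLT3-ITD libraries and to between 22.2 and 226 CPM in the others, with CD3D at a mean of 156 CPM in NOMO-1 and at a mean under 1 CPM in the other lines. Their part in the results below was not tested. CSF2RA and IL3RA, whose genes lie in the pseudoautosomal region, were listed at 0 in every library, and CD68, which shares strand and position with another annotated gene, was at most 1.01 CPM in every library, so none of the 3 was used as a marker.

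With the cell line as the unit of replication, 2 lines were set against 3 by edgeR's quasi-likelihood test on counts summed per line. Of 17478 genes tested, 0 had an adjusted p (FDR) below 0.05 with a fold change above 2 in either direction (0% called), while 1356 (7.76%) had an unadjusted p under 0.05. DESeq2 on the same sums called 106 genes higher (0.626%) and 587 genes lower (3.47%) in the FLT3-ITD lines, and limma with the line as a random block called 49 (0.295%) and 36 (0.217%). The values below therefore bear on these 5 lines and not on FLT3-ITD lines in general, and 2 further descriptions are given for each gene. The libraries of a gene do not overlap where each of the 6 FLT3-ITD libraries lies above, or each lies below, all 9 others. This held for 1159 genes higher (6.63%) and 1007 genes lower (5.76%) in the FLT3-ITD lines. The split depended on scaling: with RLE size factors it was 917 and 1190, and with library size alone 915 and 1156. The contrast of line means takes the mean log level of the 2 lines against that of the 3, with the spread between libraries of a line as the error, and so bears on these 5 lines alone. It called 1212 of 16602 genes higher (7.3%) and 2593 lower (15.6%) with the same thresholds on FDR and fold change. Log2 differences below are FLT3-ITD minus ITD-negative from the fit of line sums, unless the line means are named. Their standard error (SE) is approximate, taken as the absolute difference divided by the square root of the test's F statistic. Over all genes tested the median log2 difference was -0.07.

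FLT3 itself (chr13:28003274-28100592 on GRCh38, minus strand) had nearly the same level in both FLT3-ITD lines and very different levels among the others. Its mean was 599 CPM ± 15 (SD, n = 3) in MOLM-13 and 618 CPM ± 8.25 in MV-4-11. In THP-1 it was 84.6 CPM ± 3.71, in NOMO-1 66.5 CPM ± 3.7, and in MONO-MAC-6, the line with the point mutation, 2939 CPM ± 188. The FLT3-ITD libraries thus lay between those of THP-1 and NOMO-1 below and MONO-MAC-6 above, and the sides overlapped. The log2 difference was -0.75 (SE 1.71, unadjusted p = 0.679), turned to 2.98 without MONO-MAC-6, and was 1.25 on line means, which weigh the logarithms of the 5 lines. In the 6 other untreated AML lines the mean ranged from 0 to 90.8 CPM.

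The 24 genes of the FLT3 receptor and signalling list comprise the receptor and the kinases, adaptors and phosphatases around it. Of 23 tested, 2 did not overlap in the higher direction and 1 in the lower, shares close to the 6.63% and 5.76% of all genes, and the median log2 difference was 0.02. Single members are given for their values. GAB2, a docking protein that couples receptors to PI3K and SHP2, ranged from 84.8 to 136 CPM (median 113) in the FLT3-ITD libraries and from 30.9 to 71.5 CPM (median 55.3) in the others. Its log2 difference was 1.11 (SE 0.41, unadjusted p = 0.0397, edgeR adjusted p = 0.639), and the contrast of line means passed (edgeR adjusted p = 2.06e-19). CBL, the ubiquitin ligase that removes activated receptors, was lower in each FLT3-ITD library, at 107 to 161 CPM against 178 to 220 CPM. Its fold was under 2 and it was not called. STAT5A was highest in MOLM-13 (52.2 CPM ± 2.37), while MV-4-11 at 22.5 CPM ± 0.551 lay within the range of the ITD-negative libraries. STAT5B, JAK2, SYK, GRB2 and PTPN11 overlapped between the sides, with log2 differences from -0.19 to 0.26. After 24 hours of etoposide in the same 5 lines, 3 members of the list did not overlap in the higher direction and 1 in the lower. Of all genes tested, 6% and 7.46% did so after etoposide.

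Of 13 STAT5 targets, all tested, 4 lay higher in every FLT3-ITD library (CISH, PIM1, OSM, CCND2) and 1 lay lower in every one (BCL6), beside 6.63% and 5.76% of all genes. The median log2 difference of the list was 0.77. On line means 7 targets were called higher and 1 lower, beside 7.3% and 15.6%. CISH, a STAT5-induced inhibitor of cytokine receptor signalling (chr3:50606489-50611774, minus strand), had a mean of 87.6 CPM ± 3.43 in MOLM-13, 54.1 CPM ± 2.43 in MV-4-11 and 43.6 CPM ± 1.89 in MONO-MAC-6. In THP-1 and NOMO-1 it was 8.32 CPM ± 0.993 and 12.7 CPM ± 1.43. The order of the lines in CISH thus placed MONO-MAC-6 next to the FLT3-ITD lines, with its highest library at 44.8 CPM and the lowest FLT3-ITD library at 51.3 CPM. The log2 difference was 1.73 (SE 0.77, unadjusted p = 0.0729, edgeR adjusted p = 0.639).

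PIM1, a serine/threonine kinase that promotes survival, ranged from 155 to 382 CPM (median 237) in the FLT3-ITD libraries and from 7.84 to 118 CPM (median 71.9) in the others. OSM, which encodes the cytokine oncostatin M, ranged from 11.1 to 15.8 CPM (median 13.2) and from 1.35 to 4.04 CPM (median 3.43). CCND2, a D-type cyclin of the G1 phase, had 79.1 CPM ± 4.72 in MOLM-13 and 7.68 CPM ± 0.207 in MV-4-11, and at most 0.781 CPM in any ITD-negative library. The groups did not overlap for any of the 3, but both FLT3-ITD lines lay close to each other only for OSM. In the 6 other untreated lines the means of PIM1 ranged from 4.87 to 588 CPM. Those of OSM ranged from 1.02 to 16.1 CPM and those of CCND2 from 0.0482 to 316 CPM, so the FLT3-ITD levels were reached there too. The log2 differences were 2.08 (SE 0.98) for PIM1, 2.13 (SE 0.54) for OSM and 7.15 (SE 1.39) for CCND2, with unadjusted p-values of 0.0853, 0.00979 and 0.00312 and adjusted p-values of at least 0.584 (edgeR). BCL6, a transcriptional repressor that STAT5 is known to repress, had means of 5.03 CPM ± 0.507 in MOLM-13 and 1.32 CPM ± 0.325 in MV-4-11, and means from 7.62 to 24.9 CPM in the ITD-negative lines. SOCS2, another STAT5-induced feedback inhibitor, divided both sides: 245 CPM ± 1.91 in MOLM-13, 28.9 CPM ± 1.73 in MV-4-11, 3.87 CPM ± 0.517 in THP-1, 138 CPM ± 6.58 in NOMO-1 and 99.5 CPM ± 1.77 in MONO-MAC-6. Without MOLM-13 its log2 difference was -1.45. The list's count rested partly on which FLT3-ITD line was used, since 9 of 13 targets did not overlap in the higher direction with MOLM-13 alone on that side and 4 with MV-4-11 alone. Over all genes the number also grew when a line was left out, to 2314 without MV-4-11 and 2381 without MOLM-13.

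**Figure D1:**
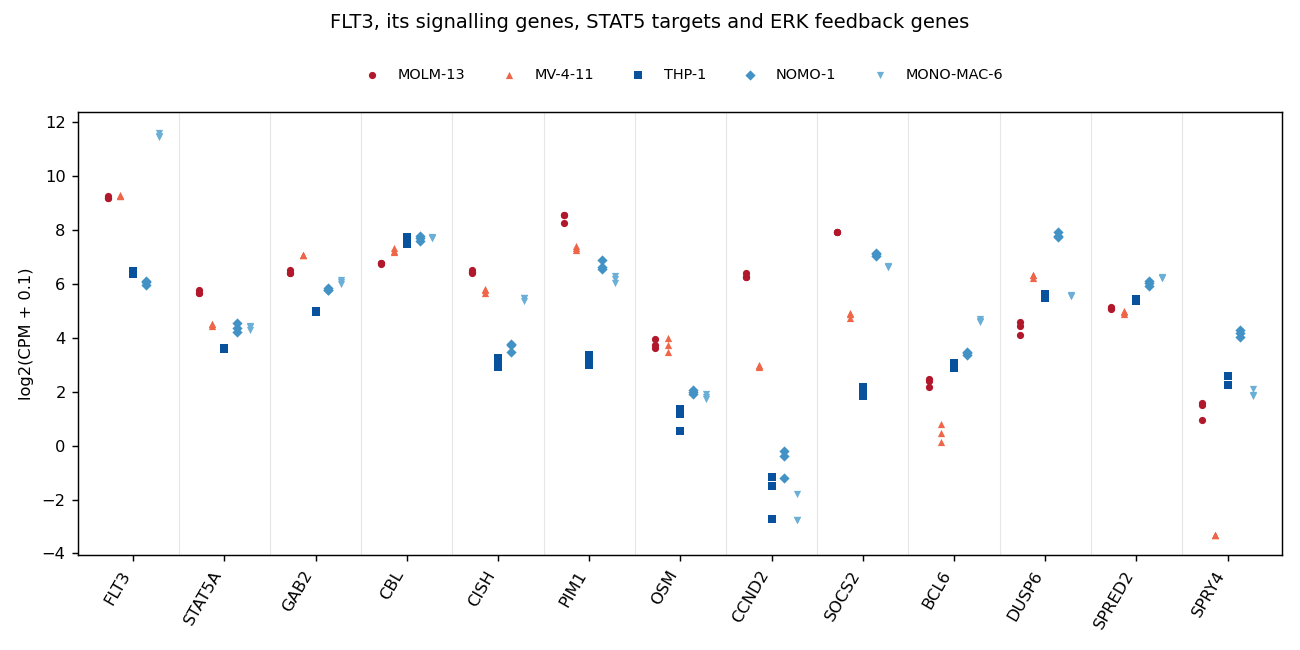
FLT3, genes of its signalling, STAT5 targets and ERK feedback genes, as log2(CPM + 0.1) on the vertical axis for each of the 3 untreated libraries of the 5 lines (1 point per library, red for FLT3-ITD lines and blue for ITD-negative lines). CISH, PIM1, OSM and CCND2 lie higher in all 6 FLT3-ITD libraries, while FLT3 is highest in MONO-MAC-6 at a mean of 2939 CPM.

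The promoters of CISH and BCL6 are shown because these targets lay in opposite directions and both carry the STAT5-type motif TTCNNNGAA, which reads the same on both strands. RefSeq promoters (250 bases before to 50 after a transcription start, GRCh38.p14) were found for 10 of the 13 STAT5 targets, and 2 of these hold the motif. It occurs in 7.66% of 35116 promoters, and 7 of them hold 4 or more matches. CISH (chr3:50611725-50612024, minus strand) and BCL6 (chr3:187745419-187745718, minus strand) hold 4 matches each. They are printed 5′ to 3′ with the matches in capitals.
CISH: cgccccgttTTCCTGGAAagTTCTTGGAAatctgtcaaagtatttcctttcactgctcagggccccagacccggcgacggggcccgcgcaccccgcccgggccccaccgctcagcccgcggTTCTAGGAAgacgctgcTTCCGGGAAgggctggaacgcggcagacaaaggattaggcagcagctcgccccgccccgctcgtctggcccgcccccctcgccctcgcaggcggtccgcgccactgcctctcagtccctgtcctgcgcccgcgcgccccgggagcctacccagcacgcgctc
BCL6: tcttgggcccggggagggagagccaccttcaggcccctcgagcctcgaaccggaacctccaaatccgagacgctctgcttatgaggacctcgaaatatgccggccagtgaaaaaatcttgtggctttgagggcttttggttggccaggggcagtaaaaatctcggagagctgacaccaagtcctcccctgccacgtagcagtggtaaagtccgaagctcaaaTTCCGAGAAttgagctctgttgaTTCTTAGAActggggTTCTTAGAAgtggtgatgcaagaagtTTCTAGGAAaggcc
In CISH the matches lie in a pair at the far end and a pair near the middle of the window, and in BCL6 all 4 lie around the start site. A match is a string of letters, and binding was not measured.

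Genes of the ERK feedback list, which MAP kinase signalling induces and which mostly dampen it, had a median log2 difference of -1.12. Of 14 tested, 13 had a difference below 0, as had 9487 of all 17478 genes, and 0 did not overlap in the higher direction. The libraries of 2 genes did not overlap in the lower direction (5.76% of all genes), and on line means 7 of 15 were called lower and 0 higher, beside 15.6% and 7.3% of all genes. SPRED2, an inhibitor of RAF activation, ranged from 29.8 to 34.9 CPM (median 32.7) in the FLT3-ITD libraries and from 41.2 to 76.6 CPM (median 64.8) in the others. SPRY4, another inhibitor of the pathway, had 2.5 CPM in MOLM-13 and was at 0 in MV-4-11, against 3.79 to 17.8 CPM. DUSP6, the phosphatase that inactivates ERK, followed no side: its mean was 21 CPM ± 3.68 in MOLM-13, 78.5 CPM ± 3.82 in MV-4-11, 47.7 CPM ± 2.84 in THP-1, 225 CPM ± 13.9 in NOMO-1 and 47.4 CPM ± 1.11 in MONO-MAC-6. Without NOMO-1 its log2 difference moved from -1.10 to 0.07. In the lower direction 7 genes of the list did not overlap without MOLM-13, and 4 without MV-4-11 or without THP-1. Over all genes the number also grew, from 1007 to 2481 without MOLM-13, 1770 without MV-4-11 and 1928 without THP-1. Within the FLT3-ITD side, SPRED1 (9.99 against 0 CPM), SPRY1 (6.84 against 0.0327 CPM) and SPRY2 (28.4 against 3.05 CPM) were far lower in MV-4-11 than in MOLM-13.

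The p53 targets held the largest share of separated genes among the 15 lists. Such targets arrest the cell cycle, repair DNA or promote apoptosis, and DNA damage and other stress induce them. Of 24 members tested, 12 did not overlap in the higher direction (against 6.63% of all genes) and 0 in the lower, and the median log2 difference was 0.93. On line means 12 were called higher and 1 lower, GDF15, beside 7.3% and 15.6% of all genes. In the fit of line sums 10 members had an unadjusted p under 0.05, all higher, and 0 were called. Of all 17478 genes, 464 were higher and 892 lower at that unadjusted p. DESeq2 called 4 members higher and 0 lower, beside 0.626% and 3.47% of all genes. The calls of limma were also 4 and 0, beside 0.295% and 0.217%. Leaving out any 1 line gave 13 to 15 members that did not overlap in the higher direction and 0 to 3 in the lower (3 without MOLM-13), while the number over all genes grew to between 1920 and 2381 and between 1770 and 2481. After etoposide the number was 11, and again 0 in the lower direction, beside 6% and 7.46% of all genes.

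CDKN1A, the p21 inhibitor of cyclin-dependent kinases, ranged from 134 to 259 CPM (median 182) in the FLT3-ITD libraries and from 20 to 75.8 CPM (median 29.6) in the others. THP-1 was the highest of the others at 70.9 CPM ± 6.69. CDKN1A had a log2 difference of 2.22 (SE 0.57, unadjusted p = 0.0108, edgeR adjusted p = 0.619).

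Among targets that act in DNA repair, DDB2 ranged from 80 to 119 CPM (median 101) and from 29.9 to 45.3 CPM (median 32.1), XPC from 51.8 to 107 CPM and from 25.5 to 47.7 CPM, and the translesion polymerase POLH from 39.2 to 51.3 CPM and from 15.3 to 37.7 CPM. Among those of cell death, the death receptor gene TNFRSF10B ranged from 143 to 174 CPM and from 17.7 to 70.8 CPM, and BAX, which permeabilizes mitochondria, from 158 to 174 CPM and from 73 to 99 CPM. TIGAR, a regulator of glycolysis, ranged from 19.4 to 35 CPM (median 26.2) and from 2.6 to 5.4 CPM (median 3.95), a log2 difference of 2.80 (SE 0.47, unadjusted p = 0.00153). These 6 genes were each higher in every FLT3-ITD library, and TIGAR and DDB2 had the smallest p-values among them. The X-linked EDA2R, a receptor of the TNF family, had 6.13 CPM ± 1.55 in MOLM-13 and 30.5 CPM ± 2.28 in MV-4-11. EDA2R had 2179 reads in the 6 FLT3-ITD libraries and 2 in the 9 others, a ratio of pooled CPM of 1654 (95% exact interval 457 to 13667, for counting error only). PHLDA3, an inhibitor of AKT, ranged from 17.8 to 27.8 CPM and from 0.0481 to 7.16 CPM. In the 6 other untreated lines the means of PHLDA3 ranged from 0 to 35.5 CPM and those of EDA2R from 0 to 27.2 CPM. TNFRSF10B ranged there from 27.8 to 173 CPM and BAX from 51.1 to 160 CPM. Each was highest in OCI-AML2, within or above the range of the FLT3-ITD libraries. CDKN1A at no more than 45.7 CPM and DDB2 at no more than 78.3 CPM lay below those libraries.

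Members that did not separate the sides included MDM2, the ubiquitin ligase that degrades p53. Its mean was 136 CPM ± 3.41 in MOLM-13, 153 CPM ± 6.51 in MV-4-11, 133 CPM ± 19.6 in THP-1, 86.5 CPM ± 6.16 in NOMO-1 and 48.9 CPM ± 3.02 in MONO-MAC-6, so THP-1 reached the FLT3-ITD level. CCNG1, SESN1, PPM1D, ZMAT3 and BTG2 also overlapped, with log2 differences from -0.49 to 0.36. GDF15, a stress-induced cytokine, had a difference of -3.41 (SE 1.73) with overlapping libraries and a mean of at most 3.93 CPM in any line.

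**Figure D2:**
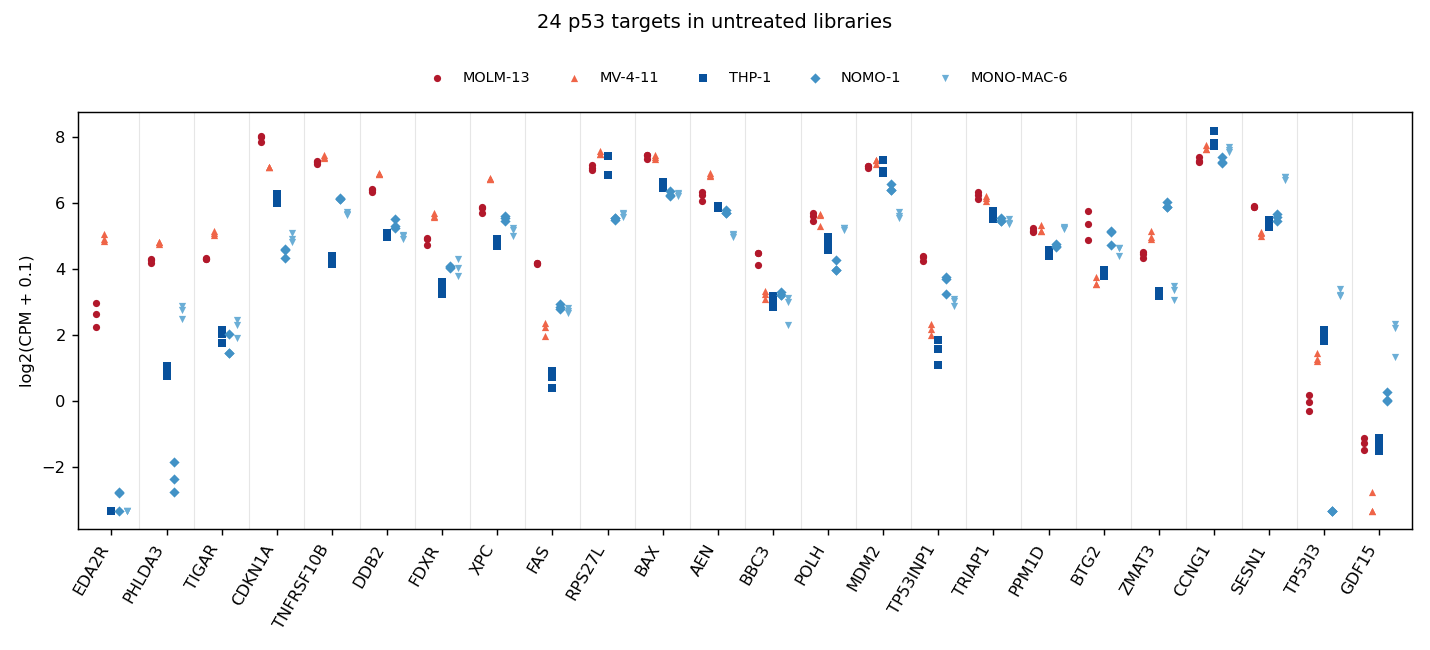
The 24 p53 targets tested, ordered by log2 difference, as log2(CPM + 0.1) for each untreated library of the 5 lines (1 point per library, red for FLT3-ITD lines and blue for ITD-negative lines). In 12 of the 24 targets all 6 FLT3-ITD libraries lie above the 9 others, and GDF15 has the lowest difference, -3.41, with libraries that overlap.

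The promoter of DDB2, a subunit of the complex that recognises ultraviolet damage, is shown because it is the single p53 target whose promoter holds a pair of p53 half-sites. Promoters were found for 22 of the 25 targets, and 6 of them hold at least 1 match to the p53 half-site consensus, which was searched on both strands at once since it is its own reverse complement. A half-site occurs in 6.63% of all promoters and in those of 7.54% of the tested protein-coding genes. A pair with a spacer of at most 13 bases occurs in 10 of 35116 promoters (0.0285%). The DDB2 promoter (chr11:47214724-47215023, plus strand, RefSeq, GRCh38.p14) is printed 5′ to 3′ with both half-sites in capitals.
DDB2: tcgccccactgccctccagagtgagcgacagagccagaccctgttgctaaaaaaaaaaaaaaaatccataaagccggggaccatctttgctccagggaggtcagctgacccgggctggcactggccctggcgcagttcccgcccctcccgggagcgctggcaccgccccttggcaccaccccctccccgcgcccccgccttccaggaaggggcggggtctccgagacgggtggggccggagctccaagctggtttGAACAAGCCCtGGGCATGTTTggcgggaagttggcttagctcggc
The half-sites are separated by a single base and lie just after the start site.

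The BCL2 family had 2 of 14 tested genes that did not overlap in the higher direction and 0 in the lower, within 2 genes of what 6.63% and 5.76% of all genes would give, with a median log2 difference of -0.03. These were BAX, also a p53 target, and BMF, a BH3-only activator of cell death, at 45.9 to 64.2 CPM (median 47.6) against 7.99 to 34.9 CPM (median 26.6). BCL2, the target of venetoclax, overlapped, with 203, 219, 231, 177 and 119 CPM in MOLM-13, MV-4-11, THP-1, NOMO-1 and MONO-MAC-6 and a log2 difference of 0.28 (SE 0.33). MCL1 was 288 and 226 CPM against 509, 235 and 341 CPM, a difference of -0.48 (SE 0.38). BCL2A1 was at 0 in MV-4-11 and at 2.14 CPM in MOLM-13, against 1.48 to 15.6 CPM.

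Of 23 monocyte and macrophage genes tested, 19 had a log2 difference below 0, beside 9487 of all 17478 genes, and the median was -1.76. The libraries of 18 overlapped. In the lower direction 4 did not overlap (S100A9, S100A12, TLR4, TLR8), and in the higher direction 1 (CD4), beside 5.76% and 6.63% of all genes. On line means 12 were called lower and 4 higher, against backgrounds of 15.6% and 7.3%. S100A9, a calprotectin subunit of monocytes and neutrophils, had 8.06 CPM ± 2.27 in MOLM-13 and 0.27 CPM ± 0.202 in MV-4-11. It was 32.3 CPM ± 5.2 in THP-1, 505 CPM ± 26.6 in NOMO-1 and 1223 CPM ± 46.3 in MONO-MAC-6. The sides did not overlap, and the lines of each side also differed by more than the spread of their libraries. The log2 difference was -7.13 (SE 2.39, unadjusted p = 0.0287).

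TLR4, the receptor for lipopolysaccharide, ranged from 4.88 to 15.8 CPM (median 9.13) in the FLT3-ITD libraries and from 23.8 to 53.4 CPM (median 32.7) in the others. CD14, its co-receptor, was high in MONO-MAC-6 (23.4 CPM) and THP-1 (7.23 CPM), while NOMO-1 at 0.262 CPM matched the FLT3-ITD lines at 0.238 and 0.267 CPM. CSF1R, the receptor for macrophage colony-stimulating factor, was 52.4 CPM ± 4.69 in MOLM-13 and 46.3 CPM ± 2.03 in MV-4-11. THP-1 lay above both at 181 CPM ± 1.69, and NOMO-1 at 12 CPM ± 0.684 and MONO-MAC-6 at 4.56 CPM ± 0.233 lay below. The log2 difference of CSF1R was -0.40 with THP-1 and 2.56 without it, and 1.19 on the line means of all 5 lines. Its sign thus moved both with THP-1 and with the way the lines were averaged. CD4, which monocytes carry as well as T cells, ranged from 246 to 280 CPM (median 267) in the FLT3-ITD libraries and from 0.0955 to 96.2 CPM (median 22.1) in the others. Its line means in the 6 other untreated lines of the series ranged from 119 to 330 CPM, above the 3 ITD-negative lines. Of this list 10 genes did not overlap in the lower direction without MOLM-13 and 7 without NOMO-1, and 5 did not overlap in the higher direction without THP-1. Over all genes these numbers also grew, from 1007 to 2481 and 2072 in the lower direction and from 1159 to 2047 in the higher. In bulk RNA, a smaller share of cells with a transcript and less transcript per cell cannot be told apart.

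**Figure D3:**
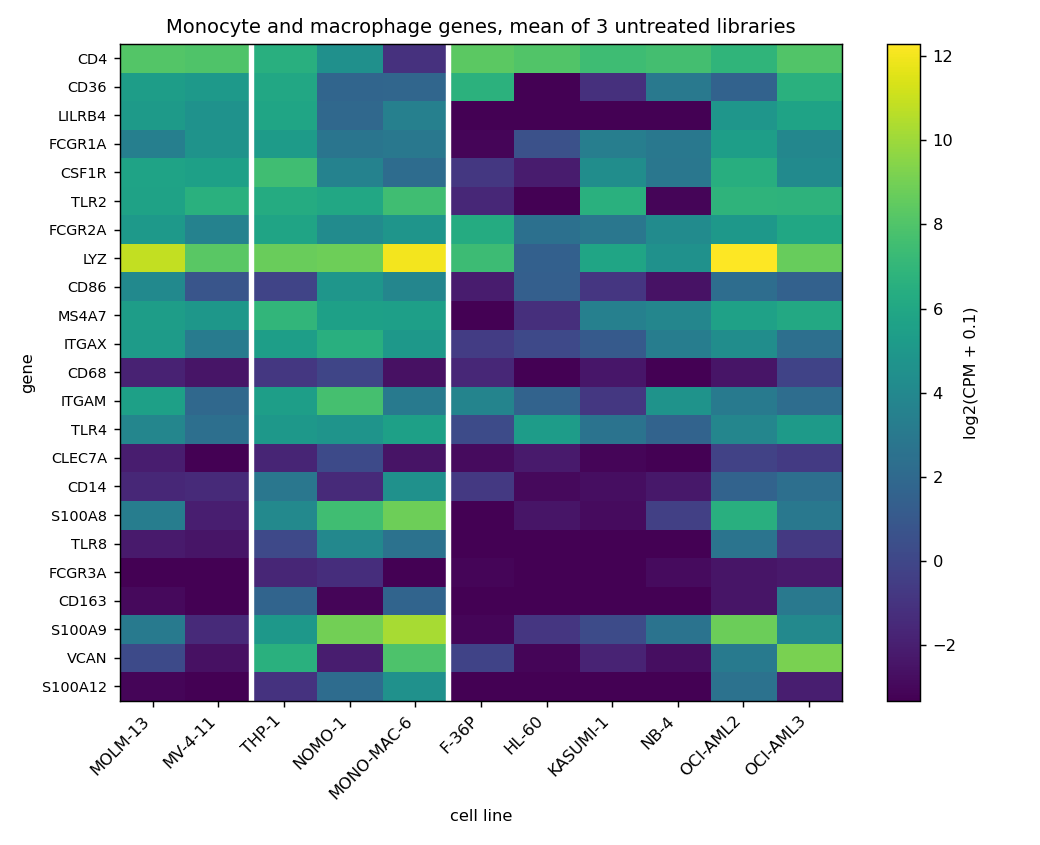
Monocyte and macrophage genes tested, as log2(CPM + 0.1) of the mean of 3 untreated libraries, for the 2 FLT3-ITD lines (left), the 3 ITD-negative lines (middle) and the 6 other lines of the series (right). S100A9 ranges from 0.27 CPM in MV-4-11 to 1223 CPM in MONO-MAC-6, and CD4 is highest in MOLM-13 and MV-4-11 among the 5 lines compared.

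Cytokines and chemokines had a median log2 difference of -2.08 over 13 tested genes, with 3 that did not overlap in the lower direction and 1, OSM, in the higher, beside 5.76% and 6.63% of all genes. IL1B, which encodes interleukin-1 beta, ranged from 0.438 to 1.42 CPM (median 0.734) in the FLT3-ITD libraries and from 1.56 to 55.3 CPM (median 2.3) in the others, and the highest level was that of MONO-MAC-6 at 52.9 CPM ± 2.86. CXCL10 and CXCL2 were lower as well, with means of at most 0.34 CPM against 0.506 to 3.68 CPM. CXCL8, the neutrophil attractant interleukin-8, overlapped at 9.45 and 1.49 CPM against 10, 52.5 and 120 CPM. The azurophil granule genes, made in granulocyte precursors, held 0 of 10 genes that did not overlap, with a median of -0.53. Their highest line means were spread over both sides, with CTSG at 5103 CPM in MONO-MAC-6, MPO at 1850 CPM in NOMO-1, and PRTN3 at 1079 CPM in MOLM-13. MHC class II genes also held 0 of 10, with a median of 0.10. After etoposide 3 of them did not overlap in the higher direction, beside 6% of all genes.

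Of 18 myeloid transcription factors tested, 2 did not overlap in the higher direction and 2 in the lower, beside 6.63% and 5.76% of all genes, with a median log2 difference of -0.00. These counts are near the background, and the members are given for their values. MYC, the growth-promoting factor, ranged from 362 to 583 CPM (median 427) in the FLT3-ITD libraries and from 147 to 299 CPM (median 278) in the others, with a difference of 0.92 (SE 0.37). RARA, the retinoic acid receptor alpha, was the other, at 56.8 and 62.1 CPM on average against 27.7, 46.3 and 48.1 CPM. CEBPE, a factor of late granulocyte maturation, ranged from 1.79 to 2.77 CPM and from 5.25 to 51.8 CPM. SPI1, the master regulator PU.1, was nearly level across the 5 lines, with means from 138 to 178 CPM and a difference of -0.10 (SE 0.22). CEBPA overlapped widely, with means from 107 CPM in NOMO-1 to 574 CPM in THP-1 and a difference of 0.03 (SE 0.77). MYB also overlapped at 609 and 591 CPM against 459 to 694 CPM.

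Of 20 targets of KMT2A fusions tested, 1 did not overlap in the higher direction and 0 in the lower, beside 6.63% and 5.76% of all genes, and the median log2 difference was -0.26. On line means 3 were called higher and 6 lower, beside 7.3% and 15.6% of all genes. HOXA9, which overlaps HOXA10 on the same strand, had means from 56.2 to 100 CPM in all 5 lines and a difference of 0.11 (SE 0.36). HOXA3, HOXA4, HOXA5, HOXA6 and HOXA7 were low in 1 line of each side: HOXA7 was at 0 in MV-4-11 and at 1.62 CPM in THP-1, and at 18.9, 32.9 and 22 CPM in MOLM-13, NOMO-1 and MONO-MAC-6. MEIS1, the partner of HOXA9, was 73.8 CPM ± 1.37 in MOLM-13 and 82.9 CPM ± 4.05 in MV-4-11. NOMO-1 had 56.4 CPM ± 2.91 and MONO-MAC-6 73.5 CPM ± 1.6, while THP-1 had 0.185 CPM ± 0.0308. LAMP5, a lysosome-associated protein, was the member that separated the sides, at 395 to 729 CPM (median 481) against 1.74 to 97 CPM (median 15.1). Its log2 difference was 3.82 (SE 1.49, unadjusted p = 0.0476). In the 6 other untreated lines the means of LAMP5 ranged from 0 to 904 CPM, with the highest in OCI-AML3. KMT2A itself was 74.9 CPM in MOLM-13 and 217 CPM in MV-4-11, against 88.4 to 173 CPM.

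Progenitor genes were low in most of these lines: 7 of 20 were not tested for lack of reads, CD34 among them, with a mean of at most 0.448 CPM in any line. Of 13 tested, 2 did not overlap in the lower direction, TRIB2 and BAALC, and 0 in the higher, beside 5.76% and 6.63% of all genes. TRIB2, a pseudokinase that promotes the breakdown of C/EBP alpha, had 0.0848 and 0.217 CPM in the FLT3-ITD lines and 1.87, 35.6 and 4.98 CPM in THP-1, NOMO-1 and MONO-MAC-6. KIT, the stem cell factor receptor, was 1.45 and 0.217 CPM against 8.06, 31.3 and 0 CPM and so overlapped. Among the other growth factor receptors, 13 of 16 were tested and IFNGR1, the interferon gamma receptor chain, was the 1 that did not overlap, at 71 to 102 CPM against 112 to 167 CPM. Lymphoid markers had 1 of 8 tested that did not overlap, CD79B, which was lower at a level of at most 0.848 CPM against 1.37 to 3.83 CPM. The erythroid and megakaryocytic markers had 0 of 2.

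Among all protein-coding genes whose libraries did not overlap with a fold change above 2, of which there were 401 higher genes of any type (2.29% of those tested) and 775 lower (4.43%), those with the smallest unadjusted p were examined further. None passed the adjustment in the fit of line sums (lowest edgeR adjusted p = 0.333), and each passed the contrast of line means. DESeq2 on the same line sums passed each of them, with adjusted p-values of at most 0.00163, and with limma the adjusted p ranged from 0.000147 for CD180 to 0.387 for GSG1. These genes were picked from the same counts by separation and smallest p, so the passes are no independent support. The higher genes included CD180, RRM2B, EDA2R, CLNS1A, PHB2, TIGAR, HPD, GSG1, ANKLE1, ADISSP and IGF1. CD180 (chr5:67179613-67196799, minus strand), a toll-like receptor homologue of B cells and monocytes, ranged from 81.7 to 113 CPM (median 95.8) in the FLT3-ITD libraries and from 7.04 to 15 CPM (median 11.9) in the others. Its log2 difference was 3.09 (SE 0.36, unadjusted p = 0.000287, edgeR adjusted p = 0.354), the smallest p of the higher genes. RRM2B, a ribonucleotide reductase subunit that p53 induces and that was not on the list of targets, ranged from 138 to 200 CPM (median 174) and from 41.7 to 61.1 CPM (median 52.8).

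PHB2, which encodes a prohibitin of the inner mitochondrial membrane, ranged from 347 to 454 CPM and from 138 to 177 CPM. The spread within a side was small next to the gap between the sides. HPD, which encodes a tyrosine-degrading dioxygenase, was low but separated, at 4.75 to 17 CPM against 0.0981 to 0.649 CPM, and IGF1, a growth factor, was at 0.438 to 2.42 CPM against at most 0.0509 CPM. In the 6 other untreated lines CD180 ranged from 0 to 70.7 CPM, RRM2B from 13.6 to 126 CPM and HPD from 0.0174 to 1.12 CPM. PHB2 had line means from 328 to 500 CPM there, near the FLT3-ITD level, so the 3 ITD-negative lines were the low ones.

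The lower genes were ZNF544, FKBP9, QPRT, BASP1, SVIP, TCEAL4, ZNF525, ZNF600, ME1, SERPINE2, ZNF813 and PDGFD. QPRT, an enzyme of NAD synthesis that overlaps SPN on its strand, ranged from 10.9 to 14.4 CPM (median 11.6) in the FLT3-ITD libraries and from 87.9 to 143 CPM (median 118) in the others, a log2 difference of -3.28 (SE 0.29, unadjusted p = 6.83e-05, edgeR adjusted p = 0.333). BASP1, a membrane-bound signalling protein and a corepressor of WT1, ranged from 18.3 to 27.4 CPM and from 149 to 207 CPM. Both genes were tightly grouped within each side. ME1, the cytosolic malic enzyme that supplies NADPH, ranged from 0.371 to 2.28 CPM and from 34.9 to 53.6 CPM. FKBP9, a peptidyl-prolyl isomerase of the endoplasmic reticulum, ranged from 0.0507 to 0.206 CPM and from 16.8 to 33 CPM. ZNF544, a zinc finger gene, had 2 reads in the 6 FLT3-ITD libraries and 2883 in the 9 others, a ratio of 949 (95% exact interval 263 to 7844).

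**Figure D4:**
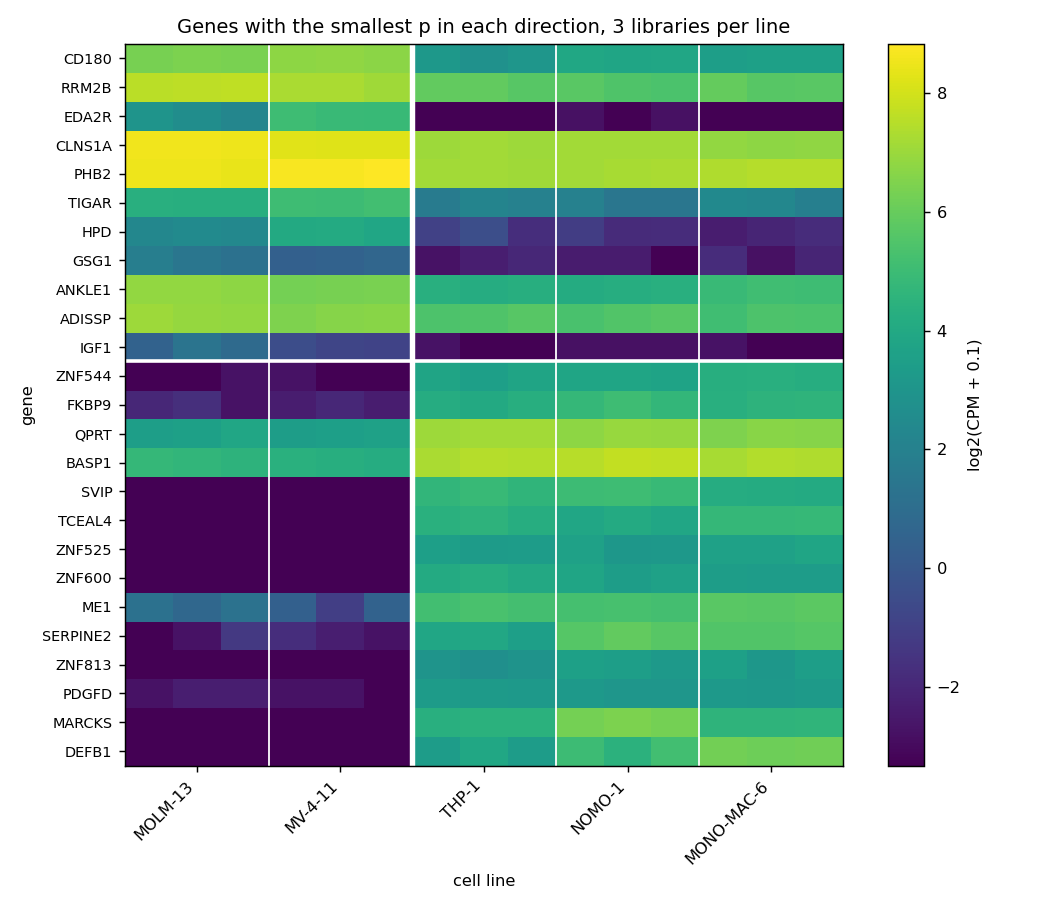
Of the genes described above, 11 higher and 12 lower ones with the smallest unadjusted p, with MARCKS and DEFB1 added below them, as log2(CPM + 0.1) in each of the 15 untreated libraries (3 columns per line, the thick line parts the FLT3-ITD lines from the others). Both FLT3-ITD lines show the lowest colour, 0 CPM, for SVIP, TCEAL4, ZNF525, ZNF600, ZNF813, MARCKS and DEFB1, which are present in all 9 other libraries.

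No reads at all were counted in either FLT3-ITD line for 9 protein-coding genes that had at least 5 CPM in every ITD-negative library. The converse, a gene at 0 in the 3 ITD-negative lines and at 5 CPM or more in each FLT3-ITD library, occurred for 0 genes. The 2 counts are not like for like, since the converse asks for 0 reads in 9 libraries of 3 lines and not in 6 libraries of 2. The 9 genes included MARCKS, SVIP, TCEAL4, ZNF600, DEFB1, ZNF525, ZNF813 and ZNF239. MARCKS (chr6:113857345-113863475), a substrate of protein kinase C that binds actin at the plasma membrane, had 21 CPM ± 0.822 in THP-1, 81.1 CPM ± 5.34 in NOMO-1 and 24 CPM ± 0.846 in MONO-MAC-6. Taking 3 reads over the 6 libraries (0.0252 CPM) as the most that a count of 0 allows, MARCKS was at least 1670-fold lower in the FLT3-ITD lines. SVIP (chr11:22813799-22830299), an inhibitor of the degradation of proteins from the endoplasmic reticulum, had 26.2 CPM ± 2.43, 31.3 CPM ± 2.33 and 17.5 CPM ± 0.446 and was at least 994-fold lower. TCEAL4 (chrX:103576231-103587729), a gene of the transcription elongation factor A-like family, was at least 844-fold lower.

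DEFB1, an antimicrobial beta-defensin, was at least 1520-fold lower, and its level varied among the ITD-negative lines from 11.9 CPM ± 2.67 in THP-1 to 72.8 CPM ± 2.32 in MONO-MAC-6. The zinc finger genes ZNF600 (chr19:52749942-52786807), ZNF525 (chr19:53365693-53392217) and ZNF813 (chr19:53467733-53496255) lie near each other and were at least 535-, 443- and 378-fold lower. ZNF525 and ZNF813 share their strand with overlapping annotated genes. All 9 genes were also at 0 CPM in at least 1 of the 6 other untreated lines, and SVIP reached 84.6 CPM in another. After etoposide the means were at most 0.149 CPM for MARCKS, SVIP and DEFB1 in both FLT3-ITD lines.

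The promoters of SVIP and ZNF813 are shown as examples of genes without reads in both FLT3-ITD lines, with each CG dinucleotide in capitals, since CG dinucleotides are the sites at which DNA is methylated. Methylation was not measured. Of the 9 genes 6 have a RefSeq promoter, with between 12 and 32 CG dinucleotides in 300 bases (median 23). The median over 10710 tested protein-coding genes with a promoter was 28, with quartiles of 20 and 36, so the 6 promoters lay within the usual range or below it. SVIP (chr11:22829522-22829821, minus strand) holds 32 and ZNF813 (chr19:53467483-53467782, plus strand) holds 25. Both are printed 5′ to 3′ from GRCh38.p14.
SVIP: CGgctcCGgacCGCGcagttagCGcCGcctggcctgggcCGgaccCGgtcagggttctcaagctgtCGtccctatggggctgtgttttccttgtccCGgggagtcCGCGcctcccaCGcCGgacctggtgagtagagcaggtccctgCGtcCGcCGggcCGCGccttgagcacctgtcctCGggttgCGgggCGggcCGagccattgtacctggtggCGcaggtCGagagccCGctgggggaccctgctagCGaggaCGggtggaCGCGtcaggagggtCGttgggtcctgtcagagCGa
ZNF813: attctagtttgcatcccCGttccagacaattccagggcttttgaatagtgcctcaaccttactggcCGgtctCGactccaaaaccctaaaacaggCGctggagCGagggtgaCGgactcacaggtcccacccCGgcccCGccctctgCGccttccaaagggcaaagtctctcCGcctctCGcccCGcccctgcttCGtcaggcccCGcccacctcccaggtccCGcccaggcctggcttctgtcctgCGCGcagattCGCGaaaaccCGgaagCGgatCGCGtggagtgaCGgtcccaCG
In SVIP the CG dinucleotides are spread over the whole window, and in ZNF813 they are denser towards the start site.

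Genes that separated the sides were unevenly placed in the genome. In 13221 genes averaging 1 CPM or more, 8.24% did not overlap in the higher direction and 6.62% in the lower. The higher share was 21.7% on chromosome 8, 20.1% on chromosome 19, 17.7% on chromosome 13, 17.5% on chromosome 12 and 13% on chromosome 20, and from 3.21% to 5.34% on chromosomes 1 to 7. In windows of 20 Mb with at least 40 genes, the first window of chromosome 12 stood out with 61 of 128 genes higher (47.7%) and a median log2 difference of 0.82, while the next window of the same chromosome had 7.69%. The first window of chromosome 19 had 141 of 431 genes higher (32.7%, median 0.47). Of the 12 higher genes with the smallest p, 5 lie on chromosome 12, among them PHB2, TIGAR and GSG1 in its first window, where CCND2 and CD4 lie too. ANKLE1 lies in the first window of chromosome 19. The position of these genes thus moves with their levels, and its part in the p53 and STAT5 results was not tested.

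In the lower direction the highest share of a chromosome was 10.7%, on chromosome 4. By windows of 20 Mb it was 23.6% on chromosome 3 (13 of 55 genes, from 140000001 to 160000000), 22.2% on chromosome 4 (10 of 45, same bounds) and 20.4% on chromosome 6 (11 of 54, from 120000001 to 140000000). On chromosome 19, 195 genes with a ZNF symbol differed from the rest of that chromosome: 13.3% of them did not overlap in the lower direction and 5.64% in the higher, against 2.09% and 23.8% of the other 765 genes. Of the ZNF genes elsewhere, 6.19% did not overlap in the lower direction. No test was made of these shares, since neighbouring genes are not independent.

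Both FLT3-ITD lines were more alike than any other pair of lines. Across 13330 genes averaging 1 CPM or more, Pearson's r of log2(1 + CPM) between MOLM-13 and MV-4-11 was 0.924, and 1945 genes (14.6%) differed by more than 2-fold on that scale. The 3 pairs within the ITD-negative side had an r of 0.820 (THP-1 and NOMO-1), 0.838 (NOMO-1 and MONO-MAC-6) and 0.853 (THP-1 and MONO-MAC-6). The 6 pairs across the sides ranged from 0.840 to 0.884. The ITD-negative lines were thus no more alike among themselves than they were to the FLT3-ITD lines. These values are across genes, which are not independent replicates, and serve as a description.

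Most of the differences were also present in etoposide-treated cells of the same lines. Of the 401 genes that did not overlap with a fold change above 2 in the higher direction, 259 (64.6%) still did not overlap in cells given etoposide for 24 hours, each line at its own IC50, and of the 775 in the lower direction 531 (68.5%) still did not. In the opposite direction the number was 0 for both. The background among all tested genes after etoposide was 6% higher and 7.46% lower. The doses differed between the lines, and the fit of line sums again called 0 of 18198 genes, with 1831 (10.1%) at an unadjusted p under 0.05. CD180, RRM2B, EDA2R, TIGAR, CDKN1A, OSM and CCND2 still did not overlap in the higher direction after etoposide, while CISH, PIM1, GAB2 and TNFRSF10B did overlap.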

How the data were processed

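RNA of untreated AML cell lines was sequenced by the authors as stranded, single-end mRNA libraries. Per the methods and the submitters' processing notes, reads were checked with FastQC 0.11.5, aligned to GRCh38.p7 (annotation gencode release 25) and counted per gene with STAR 2.5.3a, and tested with edgeR 3.20.1. The authors deposited 1 column of counts per library, without normalization. Which of STAR's count columns it is was not given in the sources used here. In gencode release 44, 756 genes are covered whole by an exon on the other strand, and 484 of them have reads. Reads that fit more than 1 place or gene are not counted by STAR, which lowers genes with close copies or overlaps.

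From the counts, 57992 identifiers were analysed after 45 copies on the Y pseudoautosomal region were left out, and 56948 were named by gencode release 44. In R 4.3.3, edgeR 4.0.16 (filterByExpr at 10 reads and 15 in total, TMM, quasi-likelihood test, Benjamini-Hochberg adjustment) was run on counts summed per line, and on 15 libraries for the contrast of line means. DESeq2 1.42.0 and limma 3.58.1 (consensus correlation 0.9344 between libraries of a line) were run beside it. CPM used TMM factors over the 33 untreated libraries and, apart from these, over the 15 treated libraries. Other steps used Python 3.11.15, numpy 2.4.6, pandas 2.3.3 and matplotlib 3.10.9. Depth was about equal in all libraries, and a count of 0 allows up to 3 reads, or 0.0252 CPM over the 6 FLT3-ITD libraries. Intervals and such limits cover counting error only.

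Lines were grouped by FLT3 status as known for them. With 5 lines there are 10 splits into 2 and 3, so an exact permutation test cannot go below a p of 0.1 and none was run. Libraries of a line are separate RNA isolations of the same cells, so p-values from line means measure the spread between these samples, which may be technical.

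The steps were tested on simulated counts of 16602 genes. With lines that vary as in these data, the test of line sums called 0 of 100 genes changed by 1.5 and 0 of 100 changed by 3 on the log2 scale, with 0 false calls, and the contrast of line means recovered 74 and 97 but also called 4408 unchanged genes. With lines that vary little, line sums recovered 99 and 100.

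The lines compared and all gene lists were chosen with earlier results of these data known. Named genes were 20 fixed genes, the 12 protein-coding genes per direction with the smallest p (with none called, those that did not overlap with a fold above 2 and a mean of at least 1 CPM), up to 6 per direction at 0 reads on 1 side and at least 5 CPM in each library of the other, and members of the lists that did not overlap with a fold above 2. Others were named after their values were seen. Some genes that the rule names are not reported here. Alternatives were RLE, library size alone, no filter, a mean of at least 5 CPM, DESeq2, limma, libraries as replicates, the replicate block, no fold minimum, and each line or replicate left out. The other 6 lines served for levels only.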

Additional observations from a re-analysis of the deposited data

How the results depend on the processing

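The counts of genes called between the lines moved with the test. DESeq2 on line sums called 106 genes higher and 587 lower, the 15 libraries taken as replicates 574 and 2191, limma with the line as a random block 49 and 36, and the contrast of line means 1212 and 2593, against 0 and 0 by edgeR on line sums. With the replicate block added, line means gave 1213 and 2590 calls, and FLT3 at 1.25 and CSF1R at 1.19 as without it. Same-numbered libraries of different lines had correlations of deviations from -0.09 to 0.42 (median 0.09, 15 of 30 over 0.1), and the median for other numbers was -0.03. Not every pair was over 0.1, and the labels name no shared batch, so the libraries were not treated as paired.

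Non-overlapping genes numbered 1920 (without MONO-MAC-6) to 2381 (without MOLM-13) in the higher direction and 1770 (without MV-4-11) to 2481 (without MOLM-13) in the lower with 1 line left out. Counts of the lists and of line means with a line or replicate left out were chosen after seeing the data.

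Of 304 alternatives for the fixed genes with a value (CD34 had none), 264 kept direction and side of the threshold, 16 passed it, and 24 turned direction, in 8 genes. CEBPA turned to -0.01 with RLE and DESeq2, to -0.03 with library size alone and for genes averaging 5 CPM or more, and ranged from -0.78 to 0.65 with a line left out. With a line left out FLT3 ranged from -1.31 to 2.98, SOCS2 from -1.45 to 1.63, SPI1 from -0.22 to 0.04, HOXA9 from -0.35 to 0.48, CSF1R from -0.97 to 2.56, KMT2A from -0.62 to 0.91 and DUSP6 from -2.32 to 0.07. In etoposide-treated libraries FLT3 was 0.31, SPI1 0.15, HOXA9 -0.09 and CSF1R 0.43. On line means FLT3 was 1.25 and CSF1R 1.19. The cause was not tested. The median of all genes was -0.07 with TMM, -0.11 with RLE and -0.14 with library size alone. In the simulated counts, line sums recovered 99 and 100 of 100 changed genes where lines varied little, and 0 and 0 where they varied as in these data. The part of depth was not tested.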

Other observations

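Among non-coding genes, chosen after their values were seen, 2 transcripts that p53 is known to induce were high in the FLT3-ITD lines. PURPL had a mean of 72.8 CPM in the FLT3-ITD lines and 0.036 CPM in the others, with a log2 difference of 10.88 and an unadjusted p of 0.000295 (edgeR). MIR34AHG, the host of miR-34a, had 18.3 and 1.44 CPM, a difference of 3.67 and an unadjusted p of 0.000597 (edgeR). Neither passed the adjustment over all genes. No share of non-coding genes is given beside them, and chosen in this way they are no independent support for the p53 targets.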
